A study of Homo sapiens with 4 samples.

Results

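The genes described here are 9 p53-responsive genes of cell-cycle arrest, repair and stress, CDKN1A, MDM2, GADD45A, SFN, PLK2, BTG2, TP53I3, SESN1 and FAS, in LAPC4, a human prostate cancer line that responds to androgen. They were taken by name, through every probe set that the array's annotation gives to that gene alone. This gave 17 probe sets for 8 genes. Of these, 8 probe sets of 6 genes reached a signal of 20 on at least 1 array, out of 9193 genes with such a probe set in all. RNA was taken after 72 hours and hybridised to 4 Affymetrix U133 arrays, with 1 array per condition: cells with a lentiviral β-TrCP shRNA in charcoal stripped serum (CSS), the same cells in fetal calf serum (FCS), control cells in CSS and control cells in FCS. The shRNA targets both β-TrCP genes, which encode substrate-binding subunits of a ubiquitin ligase. The FCS medium held 10% serum with 100 pM methyltrienolone, a synthetic androgen, and the CSS medium 10% serum stripped of androgens. Control cells were infected with GFP per the labels. The study's text describes the shRNA as induced with doxycycline and names as control both uninduced cells and the vector alone, so that effects of the shRNA, of doxycycline and of the vector cannot be told apart here. With 1 array per condition no change between 2 arrays has a replicate check.

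The p53 protein is a transcription factor that DNA damage and other stresses stabilize. It binds response elements near its target genes and switches on inhibitors of the cell cycle (CDKN1A, SFN, BTG2, GADD45A), its own inhibitor MDM2, and genes of stress defence (SESN1, TP53I3) and of cell death (FAS). Many of these genes also respond to other transcription factors, so that their RNA is not a measure of p53 alone. Expression in this report is the normalized log2 signal of a probe set, and a level of 4.32 is the floor, the log2 of a signal of 20.

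PLK2 and SFN were the members whose signal was higher in shRNA cells by the largest amounts, and their promoters, from 250 bases before to 50 bases after the start site in RefSeq (GRCh38.p14), are shown for comparison. PLK2 lies on the minus strand, with this window at chr5:58460037-58460336, and SFN on the plus strand, with its window at chr1:26862899-26863198. Capitals mark a match to the p53 decamer, the 10-base unit that is repeated in p53 response elements, searched on both strands.
PLK2: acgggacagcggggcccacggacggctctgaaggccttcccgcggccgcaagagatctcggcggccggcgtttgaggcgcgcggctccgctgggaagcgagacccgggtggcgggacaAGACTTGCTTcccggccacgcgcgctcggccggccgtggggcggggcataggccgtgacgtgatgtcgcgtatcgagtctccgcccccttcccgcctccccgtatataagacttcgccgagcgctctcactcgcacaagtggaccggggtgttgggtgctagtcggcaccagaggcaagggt
SFN: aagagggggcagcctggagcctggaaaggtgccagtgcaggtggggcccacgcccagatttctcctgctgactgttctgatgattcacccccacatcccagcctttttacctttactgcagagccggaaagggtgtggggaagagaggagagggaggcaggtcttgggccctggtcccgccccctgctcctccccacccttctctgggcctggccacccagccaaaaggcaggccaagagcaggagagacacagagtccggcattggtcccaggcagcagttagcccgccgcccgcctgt
The PLK2 window held 1 match, AGACTTGCTT, which begins at position -132 from the start site, and the SFN window held none. Of 35116 promoter windows of this length, 6.63% held a match. Among the members, 3 of 15 windows held a match, some of these windows overlapping each other. They were that of PLK2, 1 of 3 for SESN1 and 1 of 3 for FAS, while CDKN1A, MDM2, BTG2 and TP53I3 had none. The letters TATAA, searched on the printed strand only, stood in the PLK2 window from position -28 and in 14.8% of all windows. No window of GADD45A was available. Only exact matches inside these windows were searched, so that sites elsewhere or sites that deviate from the decamer would not be seen. These matches describe letters in a window and were not tested as binding sites.

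The array of shRNA cells in CSS stood apart from the other 3, which bears on each value below that uses it. Across probe sets, which are not independent, its Pearson correlation with the others was 0.925 to 0.927 after normalization, while the other 3 arrays correlated at 0.979 to 0.989 with each other. The robust SD of log2 changes over all genes was 0.587 for shRNA cells in CSS against control cells in FCS, compared with 0.237 for the shRNA in FCS and 0.229 for CSS in control cells. The local spread given beside a change is the same SD taken over the 1000 probe sets of most similar mean signal. The targeted gene FBXW11 (β-TrCP2) had a log2 signal of 4.68 in shRNA cells in CSS and 5.02 in shRNA cells in FCS, against 8.19 in control cells in CSS and 8.02 in control cells in FCS. Its other probe set was at 4.69, 4.65, 5.64 and 5.99 in the same order of arrays. BTRC (β-TrCP1) was at the floor on both shRNA arrays, against 4.64 and 4.50 on the control arrays in CSS and FCS. Of 8 markers of luminal prostate cells, 5 were measured, with KRT18 at 11.54 in shRNA cells in CSS and between 11.21 and 11.60 on the other arrays. KLK3, which encodes the prostate-specific antigen, changed by -0.64 in shRNA cells in CSS, -0.98 in shRNA cells in FCS and 0.74 in control cells in CSS, each against control cells in FCS. In the same comparisons KLK2, a related kallikrein, changed by -1.72, -1.23 and 0.70, and the keratin gene KRT8 by 0.63, 0.05 and 0.74. TMPRSS2, a serine protease, changed by -0.69, -0.55 and -0.48, but its other probe set by 0.69, -0.41 and -0.25. The luminal markers thus did not move in 1 direction. With 1 probe set used per gene, 3 of 5 were lower in shRNA cells in CSS than in control cells in FCS. For TMPRSS2 this did not hold in its other probe set. Of 6 fibroblast markers, COL1A2 and DCN were at the floor on 3 arrays and at 5.01 and 4.87 in shRNA cells in CSS, COL1A1 was at 5.58 there and between 4.99 and 5.10 elsewhere, and the 3 others were under a signal of 20 on all arrays. Of 6 leukocyte markers, CD14 was at 4.98 in shRNA cells in CSS and at the floor on the other arrays, while CD3E and HLA-DRA were at the floor on all 4. The part of these levels in the results on that array was not tested.

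PLK2 encodes a polo-like kinase that p53 induces and that acts on centriole duplication and the response to stress. Its log2 signal was 6.60 in shRNA cells in CSS, 7.47 in shRNA cells in FCS, 5.39 in control cells in CSS and 5.57 in control cells in FCS. On the linear scale these were signals of 96.7, 177, 42.0 and 47.5. Both shRNA arrays lay above both control arrays, and the shRNA array in FCS was the highest. PLK2 was thus 3.74-fold higher with the shRNA in FCS, a log2 change of 1.90 against a local spread of 0.29. In CSS the shRNA gave a 2.30-fold higher signal, with a log2 change of 1.20 against a local spread of 0.79. CSS alone changed it by -0.18 in control cells, within the local spread of 0.24. Within shRNA cells it was lower in CSS than in FCS, by -0.87 on the log2 scale against a local spread of 0.54. A single probe set measured PLK2.

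SFN encodes 14-3-3σ, an epithelial protein that p53 induces and that holds cyclin B1 and CDK1 in the cytoplasm at the entry to mitosis. It was measured by 3 probe sets, and 33322_i_at, which stands for the gene because its mean signal is the highest, had a log2 signal of 7.06 in shRNA cells in CSS, 7.89 in shRNA cells in FCS, 6.03 in control cells in CSS and 6.08 in control cells in FCS. The corresponding linear signals were 133, 237, 65.5 and 67.6. As with PLK2, both shRNA arrays were above both control arrays and the array in FCS was the highest. SFN was 3.50-fold higher with the shRNA in FCS in this probe set, a log2 change of 1.81 against a local spread of 0.31, and 2.04-fold higher with the shRNA in CSS, a change of 1.03 against 0.64. CSS alone changed it by -0.05 in control cells, against a local spread of 0.27.

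The probe sets of SFN had the same order of shRNA over control arrays, but not the same size of change. The probe set 33323_r_at was at 7.11 in shRNA cells in CSS, 7.54 in shRNA cells in FCS, 5.59 in control cells in CSS and 5.51 in control cells in FCS. It therefore resembled 33322_i_at, with a 4.06-fold higher signal with the shRNA in FCS and a 2.87-fold higher signal with the shRNA in CSS. The probe set 209260_at was at 6.54, 5.00, 4.47 and 4.65 in the same order of arrays. Its change with the shRNA in FCS was only 0.35, though beyond the local spread of 0.18, and its highest array was that of shRNA cells in CSS. Set against control cells in FCS, shRNA cells in CSS were 3.70-fold higher in this probe set, 1.97-fold in 33322_i_at and 3.03-fold in 33323_r_at. Within shRNA cells, CSS changed 209260_at by 1.54, whereas it changed 33322_i_at by -0.83 and 33323_r_at by -0.43.

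**Figure D1:**
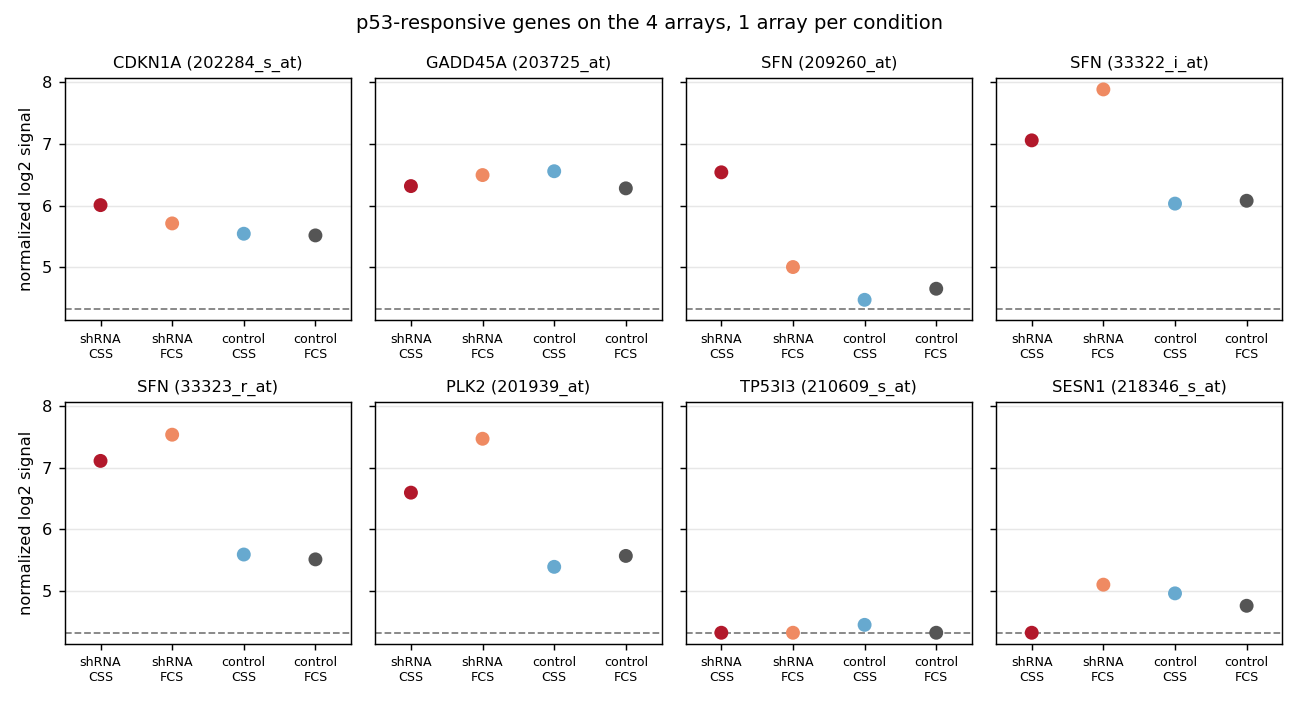
Normalized log2 signal of the 8 probe sets of p53-responsive genes that passed the filter (vertical axis) on the 4 arrays, 1 array per condition, so that there are no error bars; the dashed line is the floor of 4.32. PLK2 and the SFN probe sets are higher on both shRNA arrays than on both control arrays, while 209260_at of SFN is the only SFN probe set with its highest signal in shRNA cells in CSS.

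CDKN1A encodes p21, the inhibitor of cyclin-dependent kinases through which p53 arrests the cell cycle. Its log2 signal was 6.01 in shRNA cells in CSS, 5.71 in shRNA cells in FCS, 5.54 in control cells in CSS and 5.52 in control cells in FCS. The shRNA arrays were again above the control arrays, but each of its changes lay within the local spread. Its change with the shRNA was 0.19 in FCS against a local spread of 0.24, and 0.46 in CSS against 0.86. The change between shRNA cells in CSS and control cells in FCS was 0.49, or 0.16 with the values as deposited. GADD45A, whose product binds PCNA and CDK1 after DNA damage, had the narrowest range of the members above the floor on all arrays. It was at 6.32 in shRNA cells in CSS, 6.50 in shRNA cells in FCS, 6.56 in control cells in CSS and 6.28 in control cells in FCS. CSS changed it by 0.28 in control cells, a value equal to the local spread of 0.28, and by -0.18 in shRNA cells.

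SESN1 encodes sestrin 1, which lowers oxidative stress and mTOR signalling. It was at the floor in shRNA cells in CSS, at 5.10 in shRNA cells in FCS, at 4.96 in control cells in CSS and at 4.76 in control cells in FCS. The array that stood apart was thus the lowest for SESN1, in contrast to PLK2 and SFN. SESN1 was at least 1.56-fold lower with the shRNA in CSS and at least 1.35-fold lower in shRNA cells in CSS than in control cells in FCS, where the local spread was 0.69 and 0.60 on the log2 scale. With the shRNA in FCS it changed by 0.34, against a local spread of 0.19. TP53I3, an oxidoreductase of the apoptotic response, was at the floor on 3 arrays and at 4.45 in control cells in CSS, so that it was at least 1.09-fold higher there than in control cells in FCS. With the values as deposited its highest value was instead in shRNA cells in CSS, at 4.46, which was 0.06 above control cells in CSS.

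The remaining members gave no fold. MDM2, the ubiquitin ligase that degrades p53, had 5 probe sets with deposited log2 values of 3.69 to 4.29, all under 4.32 on all 4 arrays. FAS, a death receptor, had 4 probe sets at 3.40 to 3.99. At these signals a change of either gene was not detectable. BTG2, an antiproliferative gene, has no probe set under its name in the annotation used here and was not analysed.

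With 1 probe set standing for each gene, that of the highest mean signal, 2 of 5 members with a value, SFN and PLK2, were at least 2-fold higher with the shRNA in FCS and none was 2-fold lower, where 0.802% of 7980 genes were higher and 0.401% lower by that size. The median change of these 5 members was 0.34, beside 0.00 over all genes, and all 5 were higher. Counted from the highest change, PLK2 ranked 9 and SFN 12 of the 7616 genes that both FCS arrays measured above the floor. For SFN the count and the rank rest on the probe set that stands for it, while 209260_at changed by 0.35 in this comparison. Since the members were chosen with earlier results of these data known, the counts and ranks in this paragraph are descriptions. With the shRNA in CSS the same 2 of 6 members were at least 2-fold higher, where 7.77% of all genes were, and none was 2-fold lower, where 6.73% were. Against control cells in FCS, 1 of 5 members, PLK2, was at least 2-fold higher in shRNA cells in CSS (2.04-fold), where 7.95% of all genes were, and none was 2-fold lower, where 6.91% were. For CSS in control cells no member changed 2-fold, with 0.163% of all genes higher and 0.138% lower by that size. For CSS in shRNA cells no member did either, with 7.9% of genes higher and 6.64% lower.

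The main effect of the shRNA across both sera was tested with limma. The model held a term for the serum and a term for the shRNA, which left 1 residual degree of freedom and counted any interaction as error. With 1 array per condition this error cannot separate an interaction from variation between cultures. SFN, in the probe set that stands for it, rose with the shRNA. The effect was 1.42 ± 0.34 (log2, SE from the variance trend, 4 arrays) and the adjusted p was 0.00208. PLK2 rose by 1.55 ± 0.46 with an adjusted p of 0.0263. These were 2 of 6 members tested, where 3.89% of 8858 genes passed. Since the members were chosen with earlier results of these data known, this share is a description. The effect on CDKN1A was 0.33 ± 0.56 and its adjusted p was 0.917, and the remaining members had adjusted p of 0.945 to 0.998. No member passed for the main effect of CSS (smallest adjusted p 0.677, for SFN; no member had an unadjusted p under 0.05), where 2.55% of genes passed. In limma without a trend of the variance on signal no gene passed for the shRNA (389 of 8858 had an unadjusted p under 0.05), and the adjusted p of both SFN and PLK2 was 0.734. With the values as deposited the adjusted p was 0.492 for SFN and 0.426 for PLK2, where 43 of 9193 genes passed.

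The change with shRNA and CSS together was set beside the sum of the single changes as a description. For PLK2 the single changes summed to 1.72 and the combined change was 1.03, a departure of -0.70. For 33322_i_at of SFN the sum was 1.76, the combined change 0.98 and the departure -0.78, and for 33323_r_at the departure was -0.50. The probe set 209260_at departed in the opposite direction, by 1.72. For CDKN1A the departure was 0.27 and for GADD45A -0.46. For SESN1, at the floor in shRNA cells in CSS, the departure was at most -0.98. The local spread for shRNA cells in CSS against control cells in FCS was 0.66 to 0.94 for the other probe sets named here. That spread belongs to a change between a pair of arrays, while a departure combines the arrays of all conditions. It therefore does not measure whether a departure is large.

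The scaling of the array of shRNA cells in CSS moved the values of PLK2 and SFN that use it. With the values as deposited, where the median of all genes was -0.16 for this array against control cells in FCS, the log2 change was 0.59 for PLK2 and 0.48 for 33322_i_at of SFN. The probe sets 33323_r_at and 209260_at of SFN were still 2.21-fold and 2.93-fold higher on that scale. Within shRNA cells the deposited values gave log2 changes with CSS of -1.39 for PLK2 and -1.36 for 33322_i_at, both past 2-fold. The change with the shRNA in FCS hardly moved, at 1.97 for PLK2 and 1.85 for SFN.

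**Figure D2:**
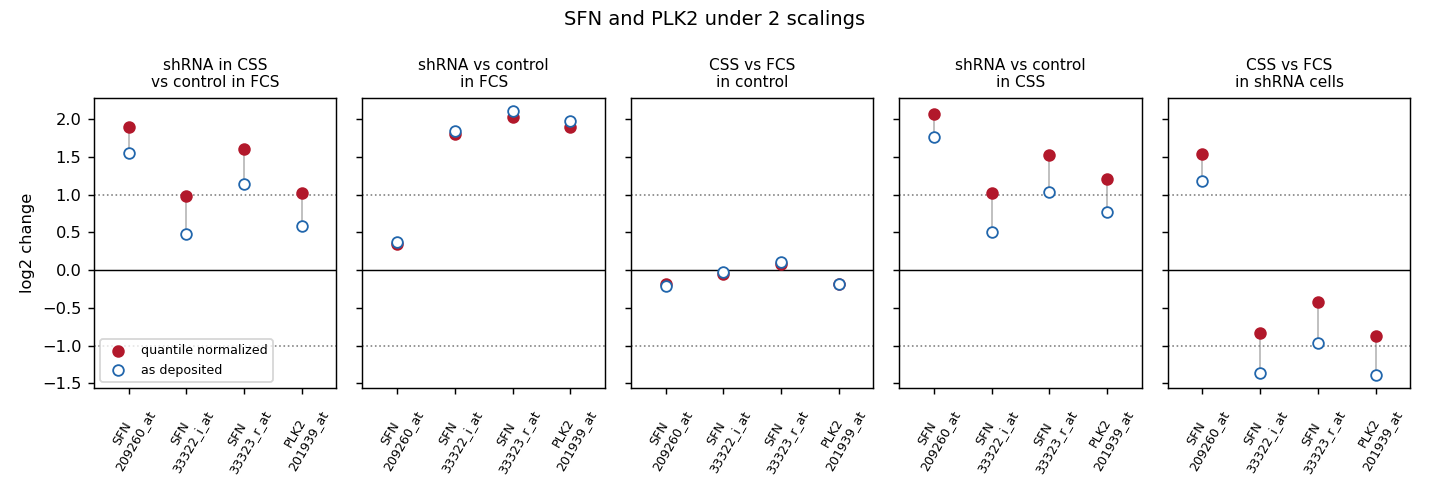
Log2 change (vertical axis) of the 3 SFN probe sets and of PLK2 in the 5 comparisons, after quantile normalization (filled) and with the values as deposited (open), with dotted lines at 2-fold. The scalings lie close together for the shRNA in FCS (1.90 and 1.97 for PLK2) and apart in the 3 comparisons with the array of shRNA cells in CSS (1.03 and 0.59 for PLK2 against control cells in FCS).

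Other genes of the pathway were taken from lists. Of 16 regulators of p53 with a value, none changed 2-fold with the shRNA in FCS, where 0.802% of all genes were higher and 0.401% lower by that size. The median change of the regulators was 0.20, with 12 of them higher and 4 lower. In shRNA cells in CSS against control cells in FCS, the median was -0.25 beside 0.03 over all genes, with 5 of 17 genes higher and 12 lower. CDKN2A, which encodes the MDM2 antagonist ARF as well as the kinase inhibitor p16, was 3.77-fold higher in this comparison, with a log2 signal of 7.30 in shRNA cells in CSS, 5.66 in shRNA cells in FCS, 5.60 in control cells in CSS and 5.39 in control cells in FCS. It was thus high on a single array. ATR, a kinase of the DNA damage response, was at the floor in shRNA cells in CSS and at least 2.91-fold lower than in control cells in FCS, but its other probe set changed by -0.25. PPM1D, a phosphatase that dampens the p53 response, was 2.23-fold lower, at 4.62 in shRNA cells in CSS against 5.77 in control cells in FCS, a log2 change of -1.16 within the local spread of 1.18. MDM4, the MDM2 relative that inhibits p53, was at the floor in shRNA cells in CSS and at least 1.78-fold lower. The checkpoint kinase gene CHEK1 changed by 0.46 with the shRNA in FCS, or by 0.04 in its other probe set, and ATM by -0.46.

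Other p53 targets were read from a list for arrest, repair and metabolism and from a list for apoptosis. Of 21 genes of the list for arrest, repair and metabolism with a value, 8 were higher and 13 lower in that comparison, none of them 2-fold, where 0.802% of all genes were higher and 0.401% lower by that size, and the median was -0.09. GDF15, a secreted stress cytokine, was among the lowest there, at -0.68, and changed by -0.91 in shRNA cells in CSS against control cells in FCS. DDB2, a protein of DNA repair, changed by -0.44 with the shRNA in FCS. In shRNA cells in CSS against control cells in FCS, NINJ1, a membrane protein, was 2.17-fold higher and TIGAR, a regulator of glycolysis, 2.33-fold lower, while TRIAP1, an inhibitor of apoptosis, changed by -0.63. Of 11 p53 targets of apoptosis with a value, 6 were higher and 5 lower with the shRNA in FCS, with a median of 0.06. PMAIP1, which encodes the BH3 protein NOXA, was the only member of that list past 2-fold, with a 5.42-fold higher signal. It was at 5.21 in shRNA cells in CSS, 7.25 in shRNA cells in FCS, 5.45 in control cells in CSS and 4.82 in control cells in FCS. Its other probe set was at the floor on 3 arrays and at 5.84 in shRNA cells in FCS. In CSS the shRNA thus changed PMAIP1 by -0.24, unlike PLK2 and SFN, which were higher with the shRNA in both sera. PERP, a desmosomal protein, changed by 0.49 with the shRNA in FCS and 0.47 in shRNA cells in CSS against control cells in FCS. STEAP3, a metalloreductase, was 2.23-fold higher in shRNA cells in CSS than in control cells in FCS, a log2 change of 1.16 that did not exceed the local spread of 1.16. PIDD1, a scaffold of caspase activation, changed by 0.78 there against a local spread of 0.89, with 9 of 13 genes of this list higher.

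Paralogs of the members were compared by the same measure. Of 20 paralogs 6 were higher and 14 lower with the shRNA in FCS, with a median of -0.09. None changed 2-fold, where 0.802% of all genes were higher and 0.401% lower by that size. The mitotic kinase PLK1 changed by 0.83 and BTG3, an antiproliferative relative of BTG2, by 0.73, although another probe set of BTG3 changed by -0.46. PLK4, the kinase that starts centriole duplication, changed by -0.09 with the shRNA in FCS and was at least 4.85-fold lower in shRNA cells in CSS than in control cells in FCS. GADD45G, a relative of GADD45A, was 3.08-fold higher in that comparison, at 6.81 in shRNA cells in CSS against 5.19 in control cells in FCS, with 5.21 and 5.08 on the other arrays. The death receptor gene TNFRSF21 changed by -0.79 in the same comparison, within the local spread of 0.92.

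The cyclins, their kinases and the CDC25 phosphatases are what p21, 14-3-3σ and GADD45A act on. Of 17 such genes with a value, 13 were higher and 4 lower with the shRNA in FCS (median 0.36), and 14 of 16 were lower with CSS in control cells (median -0.32), none past 2-fold in either. Among all genes, 0.802% were 2-fold higher and 0.401% lower with the shRNA in FCS, and 0.163% and 0.138% with CSS in control cells. CCNB1 and CCNA2, the cyclins of mitosis and of S phase and G2, changed by 0.93 and 0.92 with the shRNA in FCS, although the other probe set of CCNA2 changed by 1.18. In shRNA cells in CSS against control cells in FCS, CCNE2 was at least 4.11-fold lower and CDK6, at the floor in control cells in FCS, was at least 2.36-fold higher. PCNA and CDK2 changed by -0.95 and -0.81 in that comparison and by -0.80 and -0.63 with CSS in control cells. The other probe sets of CDK2 changed by -0.22 and 0.18 in shRNA cells in CSS against control cells in FCS.

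**Figure D3:**
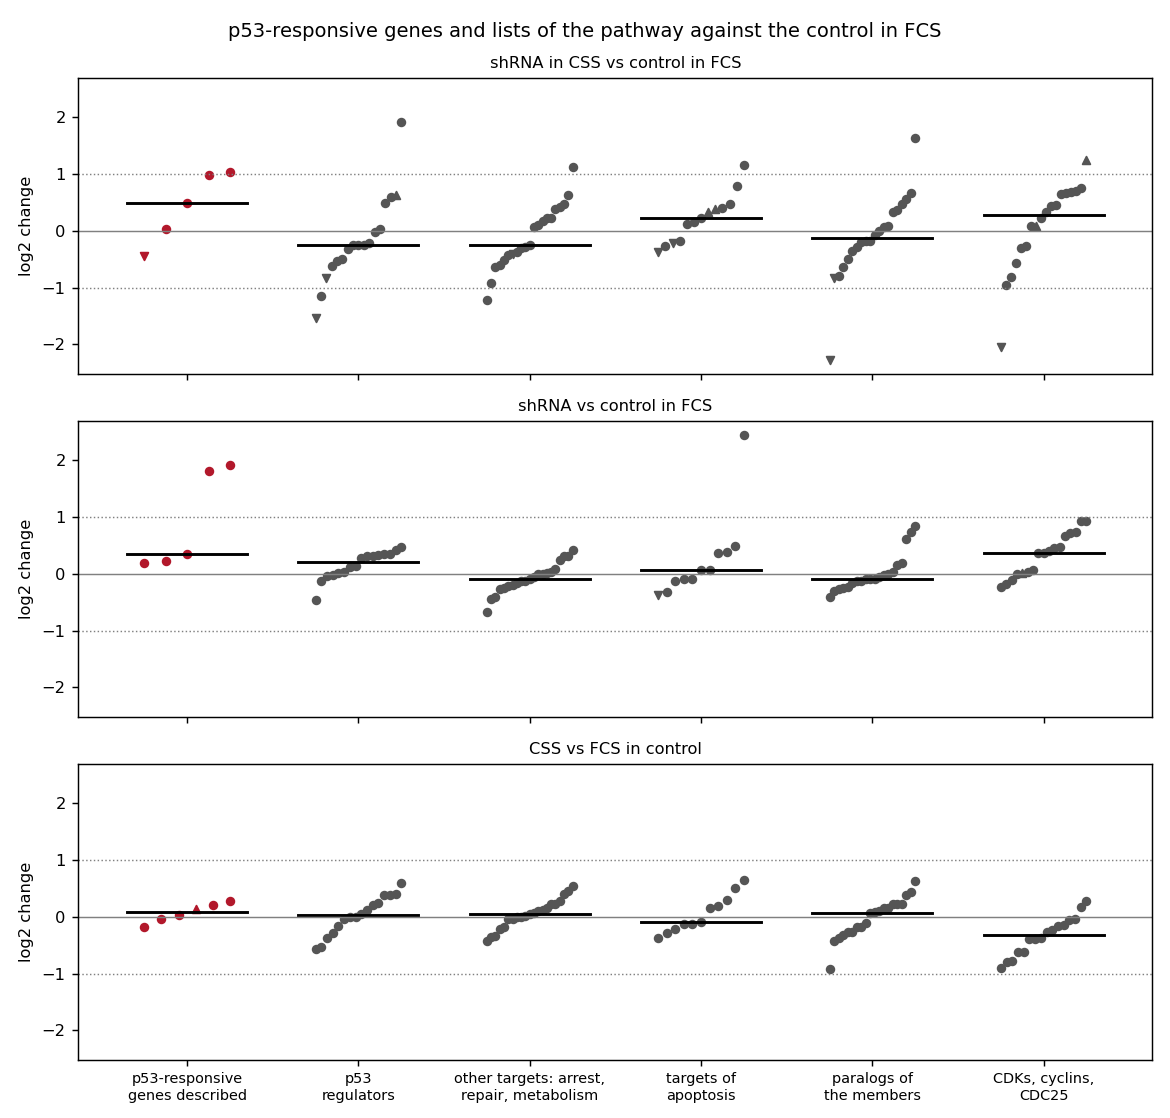
Log2 change (vertical axis) of each gene with a value against control cells in FCS, for shRNA cells in CSS (top), shRNA cells in FCS (middle) and control cells in CSS (bottom), with 1 array per condition. Points are genes, triangles are bounds where 1 array was at the floor, black lines are medians and dotted lines mark 2-fold; with the shRNA in FCS only PLK2 and SFN among the genes described, and PMAIP1 among the lists, lie above 2-fold.

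The pattern of PLK2 over the 4 arrays was closest to that of SFN. Likeness was measured as the Euclidean distance over the 3 log2 changes against control cells in FCS, among 4596 genes above the floor on all arrays and with at least the median signal. PLK2 stood nearest to SFN, at a distance of 0.17. For SFN the next were LEF1, a transcription factor of Wnt signalling (0.41), and NMU, a neuropeptide (0.47). For PLK2 they were LEF1 (0.45) and CEMIP2, a hyaluronidase of the cell surface (0.51). LEF1 changed by 1.26 in shRNA cells in CSS, 1.52 in shRNA cells in FCS and -0.12 in control cells in CSS, each against control cells in FCS. The likeness of SFN holds for 33322_i_at, since 209260_at had another order of arrays. All 3 changes share the array of control cells in FCS.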

How the data were processed

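RNA of 4 LAPC4 cultures was measured on Affymetrix U133 arrays, 1 per condition. The deposited values are log2 expression values of 22277 probe sets; the authors name MAS5 signals, a selection at an intensity of 20 with a present call, log2 transformation and quantile normalization, and the submitters' processing notes name MAS5. The deposited columns hold all probe sets and did not share a distribution (interquartile range 2.07 in shRNA cells in CSS and 2.69 to 2.74 on the other arrays). Whether they are MAS5 signals unchanged was not tested. An array's precision is limited by the number of arrays.

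Here the 15678 probe sets that reached a signal of 20 on any array were quantile normalized and floored at 20. Probe sets with 1 gene in the annotation (19064) were named through RefSeq (GRCh38.p14), and those with several genes (1043) or none (2170) left out. The probe set with the highest mean stood for a gene. Where a single array of a pair was at the floor the fold is a bound, and where both were no fold is given. Main effects were fitted with limma 3.58.1 (R 4.3.3), with a variance trend and Benjamini-Hochberg adjustment over all genes at 0.05; the prior degrees of freedom were infinite, so that the variance came from the trend. Other steps used Python 3.11.15. The normalization and fold steps and the limma fit were tested on simulated data. The members and lists were chosen with earlier results of these data known. Named beside the 9 members are the largest changes in each list against control cells in FCS (up to 4 genes for shRNA cells in CSS and 2 for shRNA cells in FCS), the p53 gene itself (not analysed here), the shRNA targets, and the 3 genes nearest to SFN and PLK2. Alternatives tried were a common median, the values as deposited, normalization without the array of shRNA cells in CSS, a floor of 100 or none, a filter at 100 or none, the mean over probe sets, a 1.5-fold threshold and no variance trend.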

Additional observations from a re-analysis of the deposited data

Results flagged for a closer look

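A closer look was prompted where the effect of a treatment had opposite signs on the 2 backgrounds, over 8 probe sets and 2 contrasts. The difference was not tested in any of them, since each effect rests on 2 arrays. The serum effect on 209260_at of SFN was 1.54 in shRNA cells and -0.18 in control cells, a difference of 1.72, and both effects exceeded their local spread. This was not so for 33323_r_at of SFN and for GADD45A. The serum effect on 33323_r_at of SFN was -0.43 in shRNA cells and 0.08 in control cells, a difference of -0.50. For GADD45A the serum effect was -0.18 in shRNA cells and 0.28 in control cells, and the shRNA effect -0.24 in CSS and 0.22 in FCS, a difference of -0.46 in each case. For SESN1, at the floor in shRNA cells in CSS, the serum effect was at most -0.78 in shRNA cells and 0.20 in control cells, and the shRNA effect at most -0.64 in CSS and 0.34 in FCS, a difference of at most -0.98 in each case. Whether the bounded effects of SESN1 exceed the local spread is not settled at this floor. Without a floor they were -1.21 for the serum in shRNA cells and -1.06 for the shRNA in CSS.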

How the results depend on the processing

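The higher signals of SFN and PLK2 with the shRNA in FCS kept their direction under all 8 alternatives, with log2 changes of 1.39 to 1.99 for SFN and 1.90 to 2.05 for PLK2 in the 7 without a floor of 100. That floor lies above both control signals, so that the changes there are bounds of at least 1.24 for SFN and at least 0.83 for PLK2, with 1 member (SFN) in place of 2 past 2-fold. Among all genes 28 of 3565 were at least 2-fold higher with that floor. The count of members at least 2-fold higher in shRNA cells in CSS against control cells in FCS, 1 in the report, was 0 with the values as deposited, a common median or a floor of 100, and 2 with a filter at 100, the mean over probe sets or a 1.5-fold threshold. Among all genes, in the same order, 384 of 9072, 742 of 9091, 58 of 3826, 151 of 3980, 523 of 8701 and 1582 of 8700 were higher. With the shRNA in CSS the 2 members 2-fold higher became 0 with the values as deposited or a floor of 100 and 1 with a common median, and 1 member (SESN1) was lower without a floor or at 1.5-fold. Higher among all genes were 385 of 9082 with the values as deposited, 48 of 3813 with a floor of 100 and 750 of 9079 with a common median. Lower were 684 of 9193 without a floor and 1434 of 8731 at 1.5-fold. For CSS in shRNA cells the count lower, 0 in the report, was 2 (SFN and PLK2) with the values as deposited or a common median, 1 (SESN1) without a floor and 3 at 1.5-fold. Among all genes, in the same order, 1100 of 9083, 548 of 9104, 684 of 9193 and 1401 of 8733 were lower. Under the mean over probe sets SFN changed by 0.10 in that comparison in place of -0.83. The 2 members past the limma threshold for the shRNA became 0 with the values as deposited or without a trend. Its adjusted p ranged from 0.000830 to 0.734 for SFN and from 0.00204 to 0.734 for PLK2. For shRNA cells in CSS against control cells in FCS, 2-fold counts of the lists also moved from the 3 regulators, 2 other targets, 1 apoptosis gene, 2 paralogs and 2 genes of the cyclin list in the report. With the values as deposited, where 384 of 9072 genes in all were higher and 1095 lower, they were 4 for other targets, 0 for apoptosis and 5 for the cyclin list. With a common median, where 742 of 9091 genes were higher and 553 lower, they were 1 for other targets. With a floor of 100, where 58 of 3826 genes in all were higher and 44 lower, they were 0 in all 5 lists. With a filter at 100, where 151 of 3980 genes were higher and 110 lower, they were 1 for regulators, 1 for other targets, 0 for apoptosis, 1 for paralogs and 0 for the cyclin list. With the mean over probe sets, where 523 of 8701 genes were higher and 524 lower, they were 1 for paralogs. With the shRNA in FCS the apoptosis count was 0 with a floor of 100, where 28 of 3565 genes were higher and 19 lower. The cyclin count was 1 (CCNA2) with the mean over probe sets, where 59 of 8003 genes were higher and 29 lower. Fewer genes are above the higher floor and filter by construction; the cause of the other moves was not tested. The split of all genes at 2-fold between shRNA cells in CSS and control cells in FCS was 692 higher and 601 lower. On the deposited scale the numbers were 384 and 1095, and the median change of all genes was -0.16. Under a common median it was 0.11. Signals near the floor limit what could be seen of MDM2, FAS, TP53I3 and SESN1. No paired analysis was possible because each condition has 1 array and the labels number no replicates. The serum term of the limma fit does set shRNA cells against control cells within each serum.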
